A study of Mus musculus with 6 samples.

Results

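The genes described here are 37 mouse genes of the interferon response and of antigen processing. They were listed by symbol as genes induced by type I or type II interferon, or used to cut and load the peptides that class I molecules present. A member was measured where a feature of the array carried its symbol and no other, which held for 30 of the 37. Of these, 29 passed a filter on dim features, a mean deposited intensity over the 6 arrays of at least 59.1 (the 25th percentile over annotated features), and were tested among 17019 genes. By role they were 3 sensors of foreign RNA, 6 factors of the interferon signal, 12 antiviral effectors, 4 interferon-induced GTPases and 4 genes of class I antigen processing. Isg15, the ubiquitin-like modifier, had a feature of its own that stayed below the filter, with at most 23.8 intensity units on any array. Igtp, Irgm2, Ifit3, Oas1a, Oas3 and Nlrc5 were named only on features that carried several symbols, and Ifi44 on none of the annotated features, so these 7 have no value below.

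Liver RNA was hybridised to Affymetrix arrays from C57BL/6 mice of genotype SRSF3HKO, aged 24 months and untreated, 1 array per sample. The groups were 3 samples of non-tumorous liver, called non-tumour 405, 483 and 623 after the numbers in the labels, and 3 hepatocellular carcinomas, called tumour 405, 483 and 616. SRSF3HKO denotes a knockout in hepatocytes of Srsf3, the gene of a splicing factor. The non-tumour samples carried this knockout too, and no liver with intact Srsf3 was analysed here, so the comparison is of tumour with knockout liver. No source used here names the Cre line. Whether each sample is a separate animal is not stated, nor whether a number shared by both groups marks 1 animal, so p-values measure the spread between these samples, which may in part be technical. These were pieces of whole tissue, in which fewer cells of a type and less RNA per cell cannot be told apart. Levels are log2 of the intensity plus 16 after the arrays were brought to 1 distribution, and 1 unit is a 2-fold difference. Differences are tumour minus non-tumour.

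Of 10 hepatocyte markers, 8 could be tested. Alb, the gene of serum albumin, lay between 13.2 and 13.3 on the 6 arrays. This is the top of the scale, where bringing the arrays to 1 distribution leaves little room to vary, so the level does not check the samples. The median deposited intensity of an array ran from 83.6 on tumour 405 to 197 on non-tumour 623. Non-tumour 623 stood apart in sex-linked genes, with Xist, expressed from an inactive X chromosome, at 5.17 against 10.55 to 12.3 elsewhere, and Eif2s3y of the Y chromosome at 8.69 against 4.17 to 5.10. The targeted gene Srsf3 lay between 9.36 and 10.8 on the 6 arrays. The position of its probes relative to the deletion was not known and other liver cells keep the gene, so its level checks no label.

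Interferons are secreted proteins that tell a cell of infection or of immune cells nearby. RNA helicases in the cytoplasm sense viral RNA and start the making of type I interferon, whose receptor activates a complex holding STAT2 and IRF9 that switches on genes through a promoter element called ISRE. Type II interferon, made by T and NK cells, acts on a second element, GAS. The induced genes include effectors that block viral translation or replication, GTPases that attack the vacuoles of intracellular microbes, and the immunoproteasome and peptide transporter that feed class I molecules. In liver, hepatocytes, Kupffer cells (the resident macrophages) and endothelial cells can all respond to interferon.

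Promoter windows of the members were searched for the letters of these elements. RefSeq promoter windows of mouse build GRCm38.p6, from 250 bases before to 50 after the annotated start, were given for 31 of the 37 members. None was given for Dhx58, Mx2, Nlrc5, Oas2, Parp14 and Usp18. The ISRE core was searched as GAAA and GAAA with any 2 bases between them and GAS as TTCNNNGAA, on both strands, and the matches may overlap, as in the Bst2 window. The ISRE core was found in the windows of 17 of the 31 members (54.8%), against 3.99% of all 27025 genes with a window. GAS was found in 10 of 31 (32.3%), against 9.55% of all genes, and either motif in 22 of 31. A match here is a string of letters and not a measured binding site. A window without a match does not show that the element is absent, since only these exact letters in these windows were searched. Shown first are the 250 bases before the start for the 3 members whose levels differed most between arrays, Gbp2, Rsad2 and Gbp3 (the first of 2 Gbp3 windows), and for the peptide transporter gene Tap1. Capitals mark the ISRE core, which in the first 3 lies on the opposite strand and so reads TTTC, any 2 bases, TTTC, and 2 overlapping cores make up the capitals of Gbp3.
Gbp2 (chr3:142620413-142620662, plus strand): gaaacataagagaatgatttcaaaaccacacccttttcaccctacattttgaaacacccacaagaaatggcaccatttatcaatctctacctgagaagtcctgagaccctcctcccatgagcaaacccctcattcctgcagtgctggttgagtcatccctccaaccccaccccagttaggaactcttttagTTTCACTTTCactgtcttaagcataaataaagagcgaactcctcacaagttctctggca
Rsad2 (chr12:26456453-26456702, minus strand): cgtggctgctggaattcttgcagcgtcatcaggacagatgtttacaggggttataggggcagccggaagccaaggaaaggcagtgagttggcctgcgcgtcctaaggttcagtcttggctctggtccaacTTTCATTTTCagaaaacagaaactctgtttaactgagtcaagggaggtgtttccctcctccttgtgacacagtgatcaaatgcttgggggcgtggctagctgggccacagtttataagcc
Gbp3 (chr3:142559794-142560043, plus strand): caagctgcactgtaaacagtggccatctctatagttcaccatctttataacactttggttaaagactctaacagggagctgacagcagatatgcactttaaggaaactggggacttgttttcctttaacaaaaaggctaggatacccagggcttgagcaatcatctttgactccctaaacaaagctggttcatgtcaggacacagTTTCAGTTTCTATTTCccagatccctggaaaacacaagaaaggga
Tap1 (chr17:34187306-34187555, plus strand): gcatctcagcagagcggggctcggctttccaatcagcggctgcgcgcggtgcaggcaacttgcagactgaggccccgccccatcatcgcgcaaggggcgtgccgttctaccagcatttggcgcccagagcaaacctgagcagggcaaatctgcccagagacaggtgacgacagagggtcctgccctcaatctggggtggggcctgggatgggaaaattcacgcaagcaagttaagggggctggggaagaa
The Tap1 window holds neither motif. Psmb9 starts beside Tap1 in the opposite direction, and its own 250 bases share 225 bases with those printed, from 34187331 to 34187555 on chromosome 17, and hold neither motif as well.

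Single sites of other members, with 10 bases on either side and the motif in capitals, show how the letters vary between a class I subunit, effectors, signal factors and GTPases.
B2m (ISRE, chr2:122147538-122147567, plus strand): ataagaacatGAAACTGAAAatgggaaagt
Ifit1 (ISRE, chr19:34640794-34640823, plus strand): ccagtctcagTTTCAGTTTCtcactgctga
Stat2 (ISRE, chr10:128270266-128270295, plus strand): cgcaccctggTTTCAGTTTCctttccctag
Irgm1 (ISRE, chr11:48871425-48871454, minus strand): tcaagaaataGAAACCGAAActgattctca
Gbp7 (ISRE, chr3:142530273-142530302, plus strand): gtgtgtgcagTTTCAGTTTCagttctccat
Isg15 (ISRE, chr4:156200871-156200900, minus strand): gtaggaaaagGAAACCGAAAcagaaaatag
Irf1 (GAS, chr11:53769914-53769942, plus strand): acagcctgatTTCCCCGAAatgatgaggc
Psmb8 (GAS, chr17:34198088-34198116, plus strand): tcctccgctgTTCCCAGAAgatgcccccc
Isg20 (GAS, chr7:78913341-78913369, plus strand): ctggggagggTTCTTGGAAtttttccttt
Irf1 and Psmb8, both textbook targets of type II interferon, held GAS without an ISRE core in these windows. Isg15, whose feature was too dim to test, held 3 overlapping ISRE cores.

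No member was called higher or lower in tumour at an adjusted p under 0.05 in limma's moderated test over all 17019 genes, where 0% of genes were called. The smallest adjusted p of any gene was 0.917. At an unadjusted p under 0.05, 0 of 29 members were higher and 0 were lower, while 2.65% of all genes were higher and 0.993% lower (3.64% in either direction). No member had groups that did not overlap, a pattern that 3.93% of all genes showed with tumour above and 3.91% with tumour below (7.84% together). On the values as deposited, whose array medians differ, 0 members were called as well, where limma called 0.0823% of all genes higher and 0.259% lower. The 29 differences ran from -0.92 for Gbp7 to 0.68 for Psmb9, with a median of -0.09 against -0.05 over all genes, and 12 of 29 were positive (41.4%, against 43.5% of all genes). With each array centred on its median instead, the median was 0.06 over the members and 0.06 over all genes. Without tumour 405 there were 20 positive differences, and without tumour 483 there were 8.

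The members' spread between arrays was set beside that of all genes tested. The pooled SD within groups was a median of 0.54 over the members and 0.31 over all genes, a ratio of 1.74. The range over the 6 arrays had a median of 1.34 against 0.83. The 95% interval of the difference lay within 2-fold in both directions for 12 of 29 members (41.4%), against 68.3% of all genes. The median level was 9.04 over the members and 7.79 over all genes, and the added 16 compresses the spread of dim genes. The part of the level in this contrast was not tested. For the other 17 the arrays leave a 2-fold difference possible in at least 1 direction, and a p above the threshold does not show that tumour and non-tumour liver were alike.

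**Figure D1:**
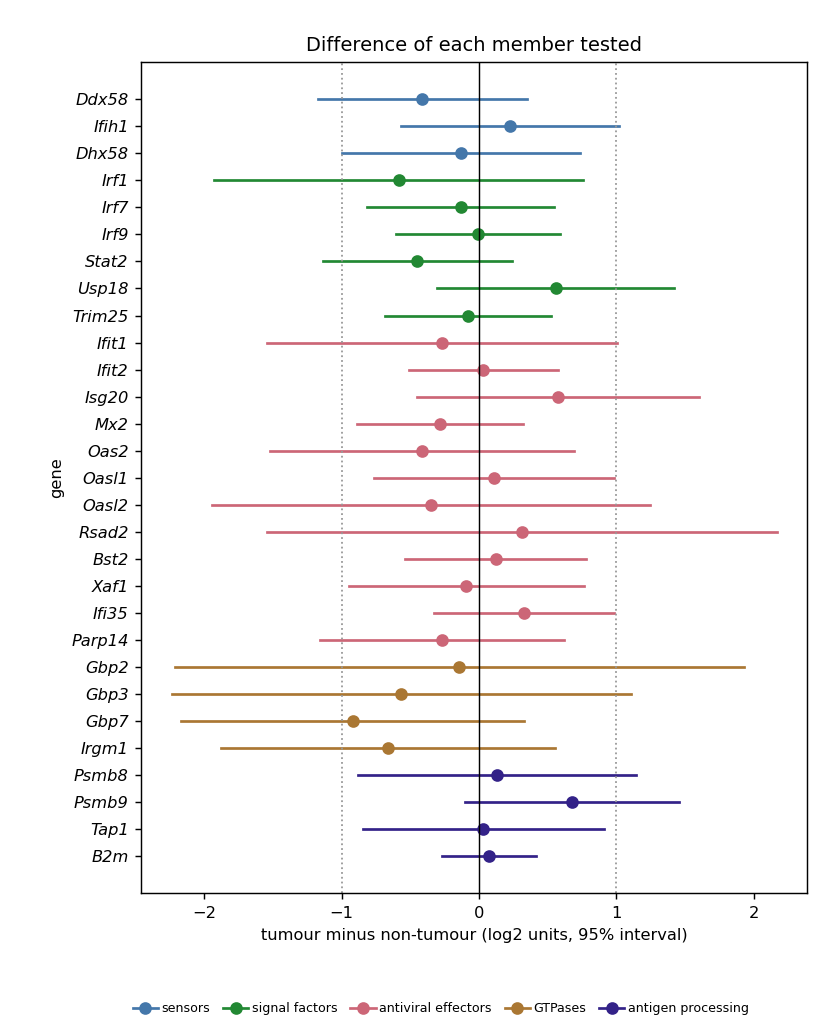
Difference between tumour and non-tumour liver for the 29 members tested, in log2 units, with dots for the difference of group means (3 arrays each), lines for the 95% interval of limma's fit and colours for the role. Dotted lines mark 2-fold in either direction, and every interval crosses 0, with the narrowest for B2m and the widest for Gbp2.

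All 3 genes of RNA sensing were tested. Ddx58, which encodes the sensor RIG-I, lay at 9.93, 9.50 and 10.18 on non-tumour 405, 483 and 623 and at 8.93, 9.81 and 9.62 on tumour 405, 483 and 616. The lowest value was that of tumour 405, the other tumour values lay among the non-tumour ones, and the difference was -0.41 ± 0.33 (SE, n = 3 per group; adjusted p = 0.917 in limma). Ifih1, which encodes the sensor of long double-stranded RNA, lay at 9.47, 9.15 and 9.69 in non-tumour and 9.03, 10.09 and 9.86 in tumour, a difference of 0.23 ± 0.34. Dhx58, whose product tunes both sensors, lay at 8.52, 8.25 and 8.71 in non-tumour and 8.21, 9.16 and 7.72 in tumour, a difference of -0.13 ± 0.38. In all 3 genes the non-tumour arrays lay closer together than the tumour arrays, and tumour 483 was above tumour 405.

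Of the 6 factors of the interferon signal, 1 had a positive difference. Their median was -0.11 after quantile normalization and became 0.25 when each array was centred on its median, so that no direction is given for them. Stat2, part of the complex that binds the ISRE, lay at 9.17, 8.74 and 8.22 in non-tumour and 8.15, 8.16 and 8.47 in tumour. Tumour 405 and 483 lay just under the lowest non-tumour value and tumour 616 inside the non-tumour range, with a difference of -0.45 ± 0.30 (adjusted p = 0.917 in limma). Usp18, which removes ISG15 from proteins and damps the type I receptor, had the only positive difference of the 6, at 0.56 ± 0.38. It lay at 11.07, 10.001 and 9.65 in non-tumour and 10.98, 10.71 and 10.71 in tumour, and the highest value of the 6 arrays was non-tumour 405. Irf1, a transcription factor induced by type II interferon, lay at 7.47, 8.80 and 8.90 in non-tumour and 6.53, 8.42 and 8.47 in tumour. Both arrays numbered 405 were the low ones in their group, and the difference of -0.59 ± 0.58 was about the size of its error. Irf7, which amplifies the type I response, lay at 10.24, 10.81 and 10.45 in non-tumour and 9.97, 10.76 and 10.38 in tumour, a difference of -0.13 ± 0.30. Here too the arrays numbered 405 were the lowest of each group and those numbered 483 the highest. Irf9 and Trim25, a ubiquitin ligase acting on RIG-I, varied little, over 0.46 and 0.50 log2 units in all.

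Among the 12 antiviral effectors, 6 had a positive and 6 a negative difference. Isg20, an exonuclease that degrades viral RNA, lay at 8.79, 8.80 and 8.67 in non-tumour and 9.30, 10.28 and 8.40 in tumour. The non-tumour values had an SD of 0.07 (n = 3), while the tumour values held both the highest and the lowest of the 6, and the difference was 0.58 ± 0.45 (adjusted p = 0.917 in limma). Ifi35, an interferon-induced leucine zipper protein, lay at 8.0, 8.74 and 8.65 in non-tumour and 8.58, 8.88 and 8.92 in tumour, a difference of 0.33 ± 0.29. Mx2, a gene of the dynamin-like GTPase family, lay at 7.31, 7.61 and 6.72 in non-tumour and 6.83, 7.23 and 6.73 in tumour, a difference of -0.28 ± 0.26. For both genes the groups overlapped. Oas2, a synthetase of oligoadenylates that activate an RNA-cutting enzyme, lay at 7.46, 8.33 and 7.60 in non-tumour and 6.77, 8.55 and 6.83 in tumour. It was highest on tumour 483 and lowest on tumour 405, so that the difference of -0.42 ± 0.48 averaged a tumour array above and 2 below every non-tumour array.

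Rsad2, Oasl2 and Ifit1 had the widest ranges of the effectors and were chosen for that after their values were seen. Rsad2, which encodes viperin, an enzyme making a chain terminator of viral RNA, lay at 8.87, 9.59 and 10.30 in non-tumour and 8.74, 11.94 and 9.01 in tumour. Tumour 483 was well above the other 5 arrays and tumour 405 the lowest, a range of 3.21 log2 units, and the group difference of 0.31 ± 0.81 was small against it. Oasl2, a relative of the oligoadenylate synthetases, showed the same order at its extremes, with 9.28, 10.66 and 10.07 in non-tumour and 8.43, 11.28 and 9.25 in tumour. Ifit1, which binds viral RNA lacking a host cap mark, lay at 8.25, 8.07 and 8.11 in non-tumour and 6.72, 9.26 and 7.64 in tumour. Its non-tumour SD was 0.10 and its tumour SD 1.28 (n = 3 each). The other effectors were Ifit2, Oasl1, Bst2 (tetherin, which holds budding virus on the cell), Xaf1 and Parp14, with differences between -0.27 and 0.12.

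**Figure D2:**
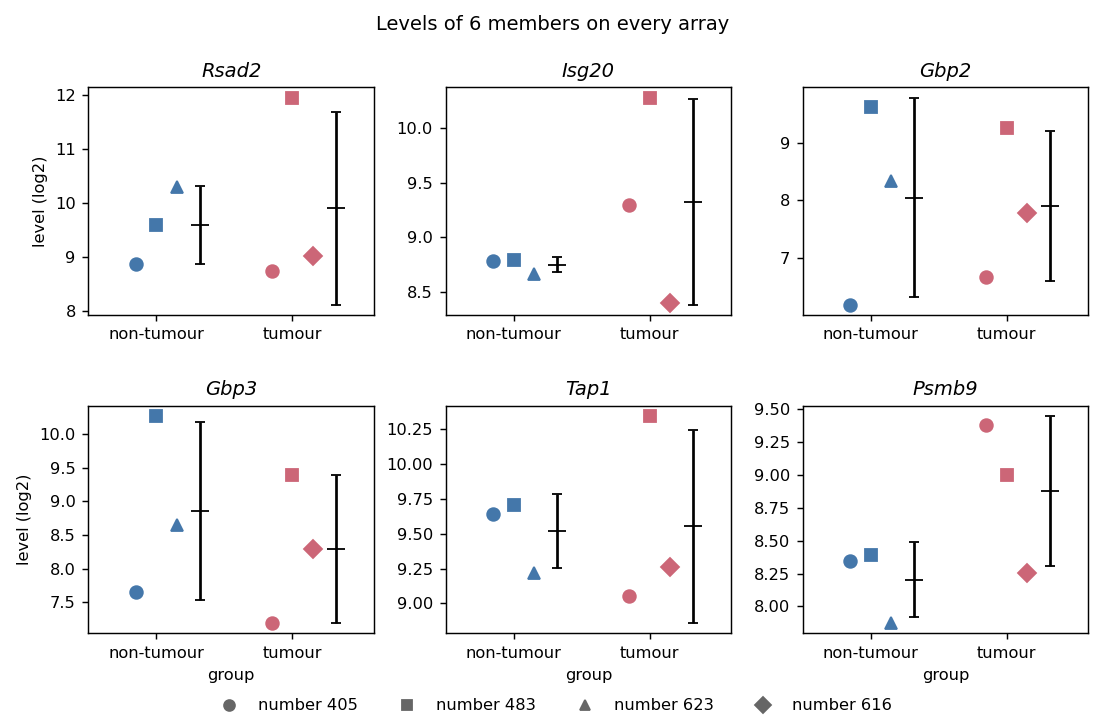
Levels of 6 members on each of the 6 arrays (log2 intensity after quantile normalization), with marker shape for the number in the labels and bars for the group mean ± SD (n = 3). In Rsad2 and Isg20 the array tumour 483 is the highest point, in Gbp2 and Gbp3 both arrays numbered 483 lie above both numbered 405, and Psmb9 is highest on tumour 405.

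The 4 GTPases tested all had negative differences, with a median of -0.62, which was -0.48 relative to the median gene as deposited and -0.42 after median centring. None passed the test, and 3 of the 4 were lowest on tumour 405. Gbp7, a guanylate-binding protein, had the largest negative difference of the 29 members, -0.92 ± 0.54 (95% interval -2.17 to 0.33, adjusted p = 0.917 in limma). It lay at 9.51, 8.51 and 9.15 in non-tumour and 7.25, 9.40 and 7.75 in tumour, so that tumour 405 and 616 were below every non-tumour array and tumour 483 was above 2 of them. Between the arrays sharing a number, the difference was -2.25 for 405 and 0.89 for 483. Irgm1, an immunity-related GTPase that regulates the others, lay at 9.64, 10.01 and 10.18 in non-tumour and 7.98, 10.13 and 9.72 in tumour, a difference of -0.66 ± 0.53. Only tumour 405 stood apart from the other 5 arrays.

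Gbp2 and Gbp3, which help break open microbial vacuoles, differed more between numbers than between tumour and non-tumour. Gbp2 lay at 6.18, 9.64 and 8.34 in non-tumour and 6.67, 9.27 and 7.78 in tumour, a difference of -0.14 ± 0.90. Gbp3 lay at 7.65, 10.27 and 8.65 in non-tumour and 7.19, 9.39 and 8.29 in tumour, a difference of -0.57 ± 0.73. In both genes the order within each group was the same, with number 405 lowest, number 483 highest and the unshared number between them. The mean of the 2 arrays numbered 483 exceeded that of the 2 numbered 405 by 3.03 log2 units in Gbp2 and by 2.41 in Gbp3.

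The 4 antigen processing genes had positive differences, with a median of 0.10 after quantile normalization and 0.50 after median centring. Over the 18 alternatives described at the end, Psmb9 kept its sign, while Psmb8, Tap1 and B2m changed it in 5, 4 and 1. Psmb9, a catalytic subunit of the immunoproteasome, had the largest positive difference of the 29 members and the smallest unadjusted p, 0.68 ± 0.34 (95% interval -0.10 to 1.45; adjusted p = 0.917 in limma). It lay at 8.35, 8.39 and 7.87 in non-tumour and 9.38, 9.0 and 8.26 in tumour, so that tumour 405 and 483 were above every non-tumour array and tumour 616 below 2 of them. Psmb8, the immunoproteasome subunit whose gene lies nearby, lay at 9.19, 9.98 and 8.93 in non-tumour and 8.64, 9.86 and 9.98 in tumour, a difference of 0.13 ± 0.44. Psmb9 was highest and Psmb8 lowest on the same array, tumour 405.

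Tap1, a subunit of the transporter that carries peptides into the endoplasmic reticulum, lay at 9.64, 9.71 and 9.22 in non-tumour and 9.05, 10.34 and 9.26 in tumour, a difference of 0.03 ± 0.38. It was lowest on tumour 405, where Psmb9 was highest, although their promoter windows printed above overlap. B2m, the light chain of class I molecules, lay at 12.76, 12.67 and 12.98 in non-tumour and 12.86, 13.03 and 12.74 in tumour. Its difference was 0.07 ± 0.15 with a 95% interval from -0.27 to 0.41, the narrowest of the 29 members, and its range over the 6 arrays was 0.36 log2 units. These levels lie near the top of the scale, where quantile normalization leaves little room to vary. With each array centred on its median the B2m difference was 0.58, outside that interval, where the median gene was at 0.06. As deposited it was 0.04, where the median gene was at -0.48. The narrow interval thus does not show that B2m was unchanged.

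Set out by array, the members departed from their own means together on 2 tumour arrays. On tumour 483, 27 of 29 members lay above their mean over the 6 arrays, with a median deviation of 0.52, against -0.03 over all genes. On tumour 405, 5 of 29 lay above their mean, with a median deviation of -0.47, against -0.01 over all genes. The medians on non-tumour 405, 483 and 623 were -0.08, 0.11 and 0.09, and on tumour 616 it was -0.15. The highest value of the 6 was on tumour 483 for 15 of 29 members (51.7%, against 9.13% of all genes) and the lowest on tumour 405 for 17 of 29 (58.6%, against 17.5%). No member was lowest on tumour 483, where 11.1% of all genes were. By role, tumour 483 was highest for 9 of 12 effectors, 2 of 3 sensors, 2 of 6 signal factors, 2 of 4 antigen processing genes and 0 of 4 GTPases.

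The normalization bears on these counts. With each array centred on its median, the highest value was on tumour 483 for 9 members (7.17% of all genes) and the lowest on tumour 405 for 10 (11.6% of all genes), while non-tumour 405 was lowest for 13 (35.7%). Relative to the median gene of the array, the members' median deviation on that scale was 0.58 on tumour 483, -0.36 on tumour 405 and -0.43 on non-tumour 405. The excess on tumour 483 was thus found on either scale, and on the centred scale both arrays numbered 405 lay low.

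**Figure D3:**
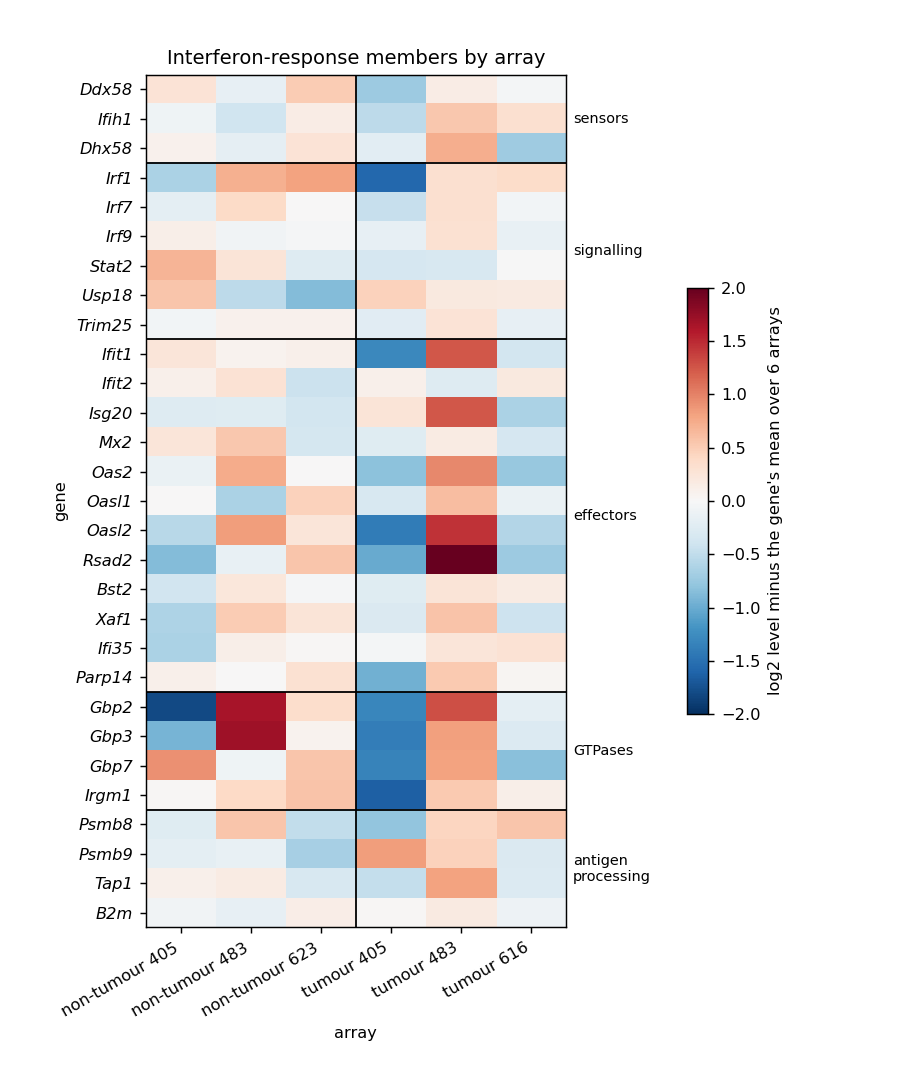
Level of each of the 29 members on each array minus that gene's mean over the 6 arrays (log2 units), ordered by role, with red above and blue below the mean. The column of tumour 483 is mostly red (27 of 29 members above their mean) and that of tumour 405 mostly blue, while no block of rows separates the 3 tumour columns from the 3 non-tumour columns.

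**Figure D4:**
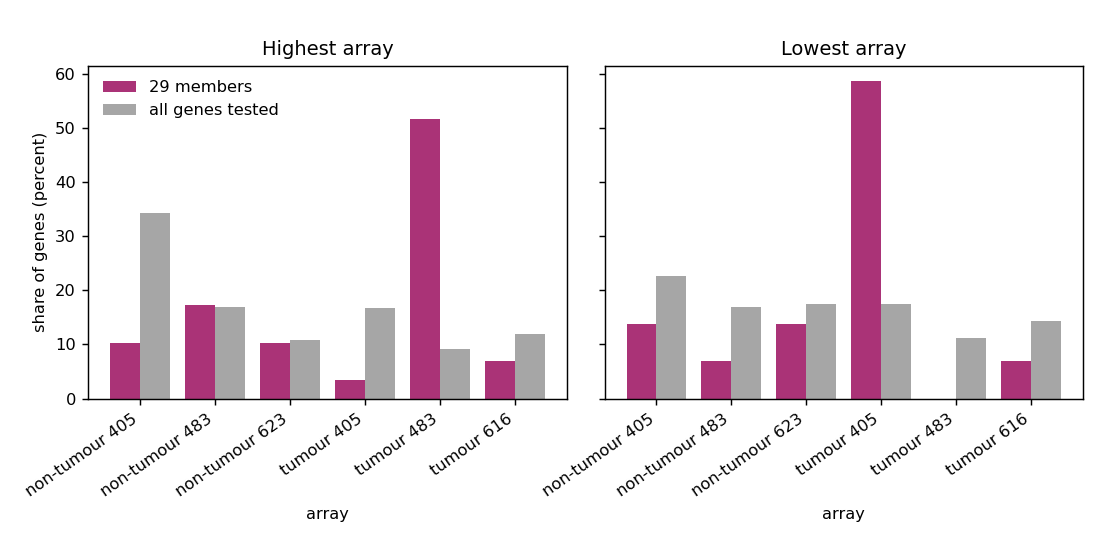
Share in percent of the 29 members and of all 17019 genes whose highest value (left) or lowest value (right) of the 6 arrays fell on each array. Tumour 483 holds the highest value of 51.7% of the members and 9.13% of all genes, and tumour 405 the lowest value of 58.6% and 17.5%.

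Both groups held a sample numbered 405 and a sample numbered 483, so the difference between numbers can be set beside that between tissues. The mean of the 2 arrays numbered 483 was above that of the 2 numbered 405 in 25 of 29 members (86.2%, against 43.6% of all genes), by a median of 0.55 log2 units against -0.06. The exceptions were Stat2, Usp18, Ifit2 and Psmb9, at -0.21, -0.67, -0.08 and -0.17. In 20 of 29 members (69.0%, against 47.9% of all genes) the number made a larger difference than the mean of both tumour to non-tumour differences within a number. The tumour sample was below the non-tumour sample in 21 of 29 members within number 405 (median -0.32) and above it in 21 of 29 within number 483 (median 0.32). Over all genes these shares were 57.2% and 46.0%. The difference was negative within 405 and positive within 483 in 15 of 29 members (51.7%, against 23.6%). Where the signs differ, the 2 differences cancel in part in their mean, which favours the number in the count of 20. The members' median deviation was -0.08 and 0.11 on non-tumour 405 and 483, and -0.47 and 0.52 on tumour 405 and 483. The gap between numbers was thus wider between the tumour arrays. For the 3 sensors the non-tumour medians ran the other way, at 0.09 on 405 and -0.17 on 483. These are 4 arrays with 1 sample each, so the differences have no replicate check.

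Members with and without the ISRE core printed above were compared as a description. The 11 tested members that held it were lowest on tumour 405 in 8 cases and had a median deviation there of -1.0, and the 13 with a window but no core were lowest there in 7 cases with a median of -0.29. On tumour 483 the medians were 0.54 and 0.43, and 5 of the 11 with the core and 7 of the 13 without it were highest there. The median range over the 6 arrays was 2.20 with the core and 1.24 without it. The set with the core held all 4 GTPases tested, whose own median range was 2.67, and the set without it held none. Ranges of the other members with the core were 0.36 (B2m), 0.64 (Bst2), 1.02 (Stat2), 1.06 (Ifih1), 1.24 (Ddx58), 2.53 (Ifit1) and 3.21 (Rsad2). The middle one of these, Ddx58 at 1.24, lay at the median range of the members without the core. No GTPase tested lacked the core, so the parts of the core and of the family cannot be told apart for the GTPases. Neither part was tested.

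Other genes of the same pathways gave no call either, with 0 past the adjusted threshold and 0 past the unadjusted one in each of the following lists. Of 20 ligands, receptors and JAK-STAT genes 16 were tested, with 8 positive differences and a median of -0.01. Pias1, an inhibitor of STAT proteins, had the smallest p, with a difference of -0.68 ± 0.33, and Ptpn2, a phosphatase acting on JAK and STAT proteins, followed at 0.67 ± 0.35. Ifng, the gene of type II interferon, stayed between 6.28 and 6.90 on the 6 arrays, and Ifnb1 was below the filter. The Ifng levels were low against the median of 7.79 over all genes, and the added 16 compresses differences of dim genes. Of 20 genes of nucleic acid sensing 16 were tested, 4 of them positive, with a median of -0.14. After median centring the medians of these lists were 0.09 and 0.03. The smallest p values were those of Irf5, a transcription factor downstream of Toll-like receptors, at -0.63 ± 0.36, and of Adar, an RNA-editing enzyme, at -0.42 ± 0.31.

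Among interferon-induced genes outside the 37, 30 tested of 39, 26 differences were negative and 4 positive, with a median of -0.35. That median was -0.24 relative to the median gene as deposited and -0.18 after median centring. Ifitm3, which blocks virus entry through endosomes, had the smallest p at -0.70 ± 0.32 (adjusted p = 0.917 in limma), followed by Herc6, the mouse ligase for ISG15, at -0.60 ± 0.29. In Epsti1 and Trim21, named after their values were seen, every tumour array was below every non-tumour array, with differences of -0.37 and -0.41, a pattern that 3.91% of all genes showed. As among the members, the lowest value was most often on tumour 405 (17 of 30) and the highest on tumour 483 (10 of 30).

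Among 14 tested of 19 other class I presentation genes, 5 differences were positive and the median was -0.06, or 0.18 after median centring. Canx, a chaperone of class I heavy chains, differed by -0.36 ± 0.28 and Erap1, which trims peptides to length, by -0.49 ± 0.41. Among constitutive proteasome subunits, 7 tested of 10, 5 differences were positive with a median of 0.30, led by Psma6 at 0.59 ± 0.31 and Psma7 at 0.88 ± 0.51. All 5 tested class II presentation genes of 8 listed were negative, with a median of -0.29. Their differences were small against their spread, with -0.55 ± 0.97 for Ctss, a protease that processes the invariant chain, and -0.44 ± 0.81 for Cd74, the invariant chain itself.

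Some markers of other liver cells were low on tumour 405 and high on number 483, as the members were. All 11 Kupffer cell and macrophage markers passed the filter, and their summed intensity was 4500, 12500 and 17300 on non-tumour 405, 483 and 623 and 1840, 14200 and 5530 on tumour 405, 483 and 616. Of these markers 10 of 11 were lowest on tumour 405 and 11 of 11 were higher on the arrays numbered 483 than on those numbered 405. Unlike the members, 9 of the 11 were highest on non-tumour 623, with a median deviation of 1.27 there against 0.09 for the members, and 1 of 11 on tumour 483. Their median difference between tumour and non-tumour was -0.87, with -1.54 ± 0.89 for Vsig4, a complement receptor of Kupffer cells, and the groups overlapped in all 11. Of the class II genes 4 of 5 were higher on the arrays numbered 483 than on those numbered 405. Their summed intensity was 1870, 6960 and 5470 in non-tumour and 1010, 6970 and 3930 in tumour. Unlike the Kupffer cell markers, 1 of the 5 was highest on non-tumour 623, with a median deviation of 0.16 there. The 4 GTPases had median deviations of -0.45, 1.02 and 0.46 in non-tumour and -1.36, 0.81 and -0.24 in tumour, and the effectors -0.19, 0.17 and 0.06 in non-tumour and -0.30, 0.59 and -0.35 in tumour. The part of these cells in the members' levels was not tested.

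For the other cell types the summed intensity of T and NK cell markers (9 of 13 tested, with Cd3g below the filter) was 943 to 1400 in non-tumour and 824 to 1210 in tumour. For stellate cell and matrix genes, 8 of 8 tested, it was 3900 to 7860 and 2110 to 7450, and for endothelial markers, 9 of 9, it was 4540 to 6550 and 4000 to 8980, with tumour 405 lowest and tumour 483 highest. Neutrophil markers, 5 of 6 tested with Ly6g below the filter, gave 290 to 840 in non-tumour and 263 to 1780 in tumour. Recruited monocyte and macrophage markers, 5 of 8 tested, had a median difference of -0.19, dendritic cell markers, 7 of 8, of -0.30, B cell markers, 5 of 6, of -0.04 and cholangiocyte markers, 4 of 6, of -0.09. On tumour 483 the dendritic cell and cholangiocyte markers had median deviations of -0.07 and -0.15. Hepatocyte markers, 8 of 10 tested, summed to 57100 to 62200 in non-tumour and 45500 to 60000 in tumour, and 7 of the 8 were lowest on tumour 405. Their levels lie near the top of the scale, where quantile normalization leaves little room to vary. Among all these markers 1 gene passed the unadjusted threshold, Flt3, a receptor of dendritic cell precursors, at -0.44 ± 0.16 (adjusted p = 0.917 in limma). The part of these markers in the members' levels was not tested either.

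**Figure D5:**
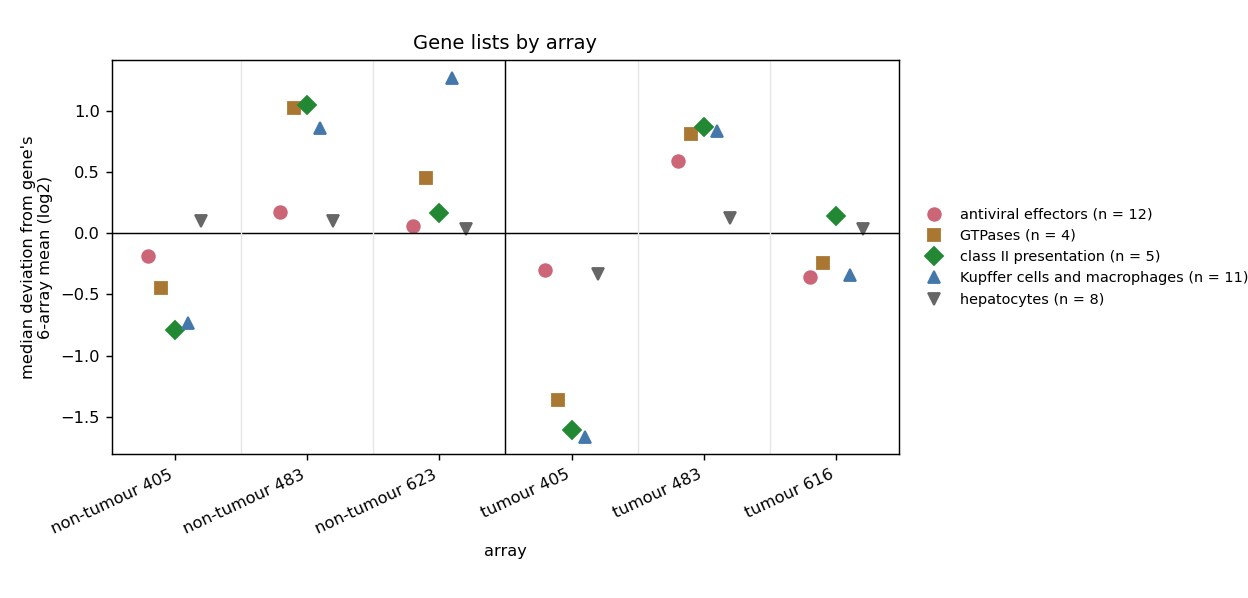
Median deviation of each gene list from its genes' means over the 6 arrays (log2 units), by array, for the antiviral effectors and GTPases among the members, and for class II presentation, Kupffer cell and hepatocyte genes. GTPases, class II and Kupffer cell genes lie below 0 on both arrays numbered 405 and above 0 on both numbered 483. Hepatocyte genes stay between -0.33 and 0.12, but their levels lie near the top of the scale, where quantile normalization leaves little room to vary.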

How the data were processed

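The authors deposited linear intensities made with PLIER, as the labels say, and the submitters' processing notes name build mm9 but no PLIER version. Of 238609 features, the platform annotation gave 24343 exactly 1 gene symbol, and these alone were used. Array medians spanned 1.09 log2 units, so log2(intensity + 16) values were quantile normalized, which understates differences of dim genes. The median over a symbol's kept features gave the gene value. Of the 30 member genes with a feature, 29 matched RefSeq by Entrez number and 0 were renamed. The groups were compared in limma 3.58.1 under R 4.3.3 (lmFit, eBayes with an intensity trend, prior degrees of freedom 4.19) without covariates, with Benjamini-Hochberg adjustment over all 17019 genes. Only this fit was run on simulated data, with independent noise around normalized gene means, to see that the mean effect was recovered. The normalization, filter and feature summary were not tested in that way. Numbers were not used as pairs because they are not stated to mark the same animal. Correlations of same-numbered samples' deviations from their group means were 0.28 for 405 and -0.01 for 483. Between different numbers they were -0.03 (non-tumour 405 with tumour 483) and -0.18 (non-tumour 483 with tumour 405). With 3 arrays per group these values cannot show whether the samples were paired. Alternatives were other normalizations, pseudocounts, filters, feature summaries, the block and left-out samples. Values on every array are given for the 4 members of each role with the smallest p, and for other lists the 2 pathway genes or 1 marker with the smallest p, with exceptions said in place. The members, lists and rules were chosen with earlier results of these data known.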

Additional observations from a re-analysis of the deposited data

How the results depend on the processing

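No member was called by limma under any of 18 alternatives, with a smallest adjusted p of 0.457 over all of them, and 9 of 29 members kept the sign of their difference in every alternative that tested them (Mx2 in 17) while 20 changed it in at least one. On the values as deposited, where the median gene was at -0.48, 14 genes were called higher and 44 lower (0.0823% and 0.259% of those tested), none of them a member, 4 members had a positive difference instead of 12, 9 were highest on tumour 483 instead of 15 (3.55% of all genes), 15 on non-tumour 623 (56.1%), and 23 were lowest on tumour 405 (56.6%). Relative to the array's median gene, the members' deviation on tumour 483 was 0.58 there. In limma's fit of the deposited values the prior degrees of freedom were infinite, against 4.19 in the main fit. The calls of these 2 fits thus differ in the variance estimate as well as in the scale. With each array centred on its median, 9 were highest on tumour 483 and 10 lowest on tumour 405 instead of 17. Leaving out 1 sample at a time gave 8 (without tumour 483) to 20 (without tumour 405) positive members and a median difference from -0.40 to 0.08, and leaving out number 483 in both groups, added after seeing the data, gave 7. With the number as a block, which the labels do not show to pair the samples, 0 genes were called, 15 members were positive and the median was 0.00. The cause of these shifts was not tested. With 3 arrays per group, and values near the background compressed by the added 16, a 2-fold difference in at least 1 direction lay within the 95% interval of 17 of the 29 members.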
